A study of Mus musculus with 7 samples.

Results

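The genes described here encode 9 proteins of the muscle Z-disc and its attachments that belong to the LIM, filamin and Xin families or bind them: Csrp3, Fhl1, Ldb3, Pdlim5, Flnc, Myot, Xirp1, Xirp2 and Nrap. They were chosen by name as the array rows whose single platform gene symbol equals one of these symbols. All 9 of 9 were found, each with 1 row, out of 19938 genes with a row of a single symbol, and all 9 passed the filter on low values that kept 12102 genes. The rule uses names, but the names were picked with results of these data in view, so counts of members past a threshold describe these genes and are no test. Myot has neither a LIM domain nor filamin or Xin repeats, and it is listed as a Z-disc partner of filamin C.

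The muscle studied was the left plantaris, a mostly fast calf muscle, and the mice were C57BL/6J males 5 months old, with no transgene or altered allele named in the labels. All animals first had their hind limbs suspended for 2 weeks, which unloads and wastes the calf muscles. Samples were collected when suspension ended (d0, which the study used as its control) and after 1, 3, 5, 7, 10 and 14 days of regrowth with the limbs loaded again (d1 to d14). Every day is 1 Mouse Gene 1.0 ST array carrying RNA pooled from 6 animals, so no value has a replicate, the animals differ between days, and muscle that was never suspended was not analysed here.

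Z-discs hold the ends of the thin filaments of neighbouring sarcomeres together through alpha-actinin, and they carry the force that a contracting or stretched fibre develops. Filamin C is the muscle actin cross-linker of the Z-disc edge and the membrane attachments; it unfolds under tension, and damaged copies are removed by a chaperone pathway that includes Bag3 and Hspb8. Xin proteins bind actin and filamin C and gather in places of fibre damage and at the myotendinous junction. LIM domain proteins dock at the Z-disc, and several of them, Csrp3 among them, are also found in the nucleus as partners of transcription factors.

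Several of these genes had their highest values together at d1, so promoter windows were searched for the motifs of factors known to act in muscle or in heat shock. RefSeq windows of GRCm38.p6 reaching 250 bases upstream of a start were at hand for 7 of the members, 12 windows in all, and were searched on both strands for M-CAT (CATTCC), E-box (CANNTG), heat shock element (GAANNTTC), TATA box (TATAAA), CArG box and MEF2 site. Capitals mark motif matches in the windows below, which are shown because Csrp3 and Flnc had the largest d1 ratios among the 7 members and Xirp2 had a low one. Each is written 5′ to 3′ on the strand of the gene. The Csrp3 window (chr7:48848052-48848301, minus strand) is one of 2 for this gene and holds 4 E-boxes. The Flnc window (chr6:29432903-29433152, plus strand) holds no match. The Xirp2 window (chr2:67445752-67446001, plus strand) holds a MEF2 site of 10 bases starting 74 bases before the start and 2 E-boxes that overlap each other.
Csrp3: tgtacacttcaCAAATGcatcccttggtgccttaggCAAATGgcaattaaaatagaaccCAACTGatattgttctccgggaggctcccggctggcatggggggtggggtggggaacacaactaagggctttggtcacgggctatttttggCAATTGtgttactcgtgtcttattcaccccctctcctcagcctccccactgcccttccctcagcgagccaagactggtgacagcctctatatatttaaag
Flnc: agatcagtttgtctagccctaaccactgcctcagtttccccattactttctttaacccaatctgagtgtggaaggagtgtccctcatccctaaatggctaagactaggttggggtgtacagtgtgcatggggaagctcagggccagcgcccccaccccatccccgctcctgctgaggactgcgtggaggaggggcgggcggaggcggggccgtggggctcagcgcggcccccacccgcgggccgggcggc
Xirp2: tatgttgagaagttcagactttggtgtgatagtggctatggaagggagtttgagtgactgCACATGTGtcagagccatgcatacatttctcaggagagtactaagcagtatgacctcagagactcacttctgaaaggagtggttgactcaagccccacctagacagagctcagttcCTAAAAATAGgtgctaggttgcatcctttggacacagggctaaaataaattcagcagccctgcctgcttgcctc
No match of one motif overlapped a match of another in any member's windows. The share of all 32851 windows of this length with a match was 66.2% for the E-box, 12.6% for M-CAT, 12.4% for the TATA box, 6.69% for the heat shock element, 2.92% for the MEF2 site and 1.47% for the CArG box. CArG boxes were found in 1 window of Fhl1 and in both overlapping windows of Ldb3. A heat shock element was found in 1 window each of Csrp3 and Fhl1, and M-CAT in the other window of Flnc. TATA boxes were found in 1 window each of Fhl1 and Pdlim5. Besides the windows shown, E-boxes were found in the other window of Csrp3, both windows of Fhl1, 1 window of Pdlim5 and the window of Nrap. A match of letters is a description of these windows; binding was not measured.

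Intensities are the deposited linear values, ratios are log2 ratios of 1 array to the d0 array unless a fold is named, and none of these ratios has an error or a p-value. One row's intensity was not set against another row's. Array medians lay between 128.1 and 131.8, the median ratio of all 12102 genes was 0.05 to 0.10 depending on the day, and the d0 array stood slightly apart, with a mean Spearman correlation of 0.988 with the other arrays against 0.993 to 0.995 for each of those (19938 genes). All comparisons with d0 share that array. Fast fibre markers, all 9 of 9 kept, had medians from -0.09 to -0.03 and a summed intensity of 116967 at d1, against 121752 at d0. Myh2, the fast IIa myosin, stood apart from the other 8 fast markers with a ratio of 0.55 at d1 and 1.08 at d3.

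Csrp3, the muscle LIM protein, had an intensity of 779.9 on d0, 6741 on d1, 4773 on d3, 3504 on d5, 2603 on d7, 2144 on d10 and 1679 on d14. The d0 array was the lowest, the d1 array the highest, and each later array was lower than the one before it. Its ratio was 3.11 on d1, 2.61 on d3, 2.17 on d5, 1.74 on d7, 1.46 on d10 and 1.11 on d14. These are folds of 8.64, 6.12, 4.49, 3.34, 2.75 and 2.15. Ranked from the highest ratio among 12102 genes, Csrp3 was number 2 on d1, number 1 on d3 and d5, number 2 on d7, number 28 on d10 and number 3 on d14.

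Fhl1, which consists almost wholly of LIM domains and binds titin, had an intensity of 11205 on d0, 16243 on d1, 17318 on d3, 15544 on d5 and on d7, 15578 on d10 and 14285 on d14. It was the single member whose highest array was d3. Its ratio was 0.54 at d1, 0.63 at d3, between 0.47 and 0.48 from d5 to d10, and 0.35 at d14. The d0 array was the lowest, but no day reached 2-fold, and the highest rank was number 162 of 12102 at d3.

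The PDZ-LIM proteins tie alpha-actinin to signalling enzymes at the Z-disc. Ldb3, known as Cypher or ZASP, had an intensity of 5044 on d0, 6448 on d1, 6043 on d3, 5362 on d5, 6133 on d7, 5624 on d10 and 5668 on d14. Its ratio was highest at d1 (0.35) and lowest at d5 (0.09), with 0.17 at d14. Pdlim5, known as ENH, had an intensity of 3905 on d0, 4626 on d1, 4453 on d3, 4260 on d5, 4302 on d7, 4248 on d10 and 4153 on d14. Its ratio was 0.24 at d1, above the all-gene median of 0.10, and 0.09 at d14, close to the all-gene median of 0.08. Both genes were lowest at d0 and highest at d1, by amounts inside the central 95% of all genes, which spanned -0.36 to 0.66 at d1.

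Flnc, filamin C, had an intensity of 2402 on d0, 10409 on d1, 5541 on d3, 4393 on d5, 4641 on d7, 4547 on d10 and 4240 on d14. The d1 array stood well above the rest, and the 4 arrays from d5 to d14 lay close together above d0. Its ratio was 2.12 on d1, 1.21 on d3, 0.87 on d5, 0.95 on d7, 0.92 on d10 and 0.82 on d14, or 4.33-fold on d1 and 1.77-fold on d14. Its rank was number 7 of 12102 genes at d1 and number 20 at d14.

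Myot, myotilin, which bundles actin and binds filamin C and alpha-actinin, had an intensity of 13463 on d0, 15119 on d1, 14092 on d3, 13968 on d5, 14088 on d7, 14302 on d10 and 14088 on d14. It was the flattest member, with ratios of 0.17 at d1 and 0.05 to 0.09 afterwards.

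Xirp1, the actin-binding protein Xin, had an intensity of 891.2 on d0, 6668 on d1, 2704 on d3, 1882 on d5, 1751 on d7, 1473 on d10 and 1310 on d14. Like Csrp3, it was lowest at d0, highest at d1 and lower at each later day than at the day before. Its ratio was 2.90 on d1, 1.60 on d3, 1.08 on d5, 0.97 on d7, 0.72 on d10 and 0.56 on d14. In folds it was 7.48 at d1, number 4 of 12102 genes, and 1.47 at d14, number 111.

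Xirp2, its larger relative (xeplin or myomaxin), had an intensity of 7991 on d0, 9500 on d1, 8975 on d3, 8690 on d5, 8340 on d7, 8438 on d10 and 7782 on d14. Its ratio was 0.25 at d1, 0.06 at d7 and -0.04 at d14, and it was the single member whose lowest array was d14 and not d0. The d1 ratio of Xirp1, which carries the same kind of repeat, was 2.90.

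Nrap, a protein with a LIM domain and nebulin-like repeats that is known from myotendinous junctions and from the assembly of new myofibrils, had an intensity of 6076 on d0, 8945 on d1, 7116 on d3, 6221 on d5, 6766 on d7, 6939 on d10 and 6950 on d14. It was 47.2% higher at d1 than at d0 and 2.40% higher at d5. Its ratio was 0.56 on d1, 0.23 on d3, 0.03 on d5, 0.16 on d7 and 0.19 on d10 and d14, so the d1 array stood apart from the others.

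**Figure D1:**
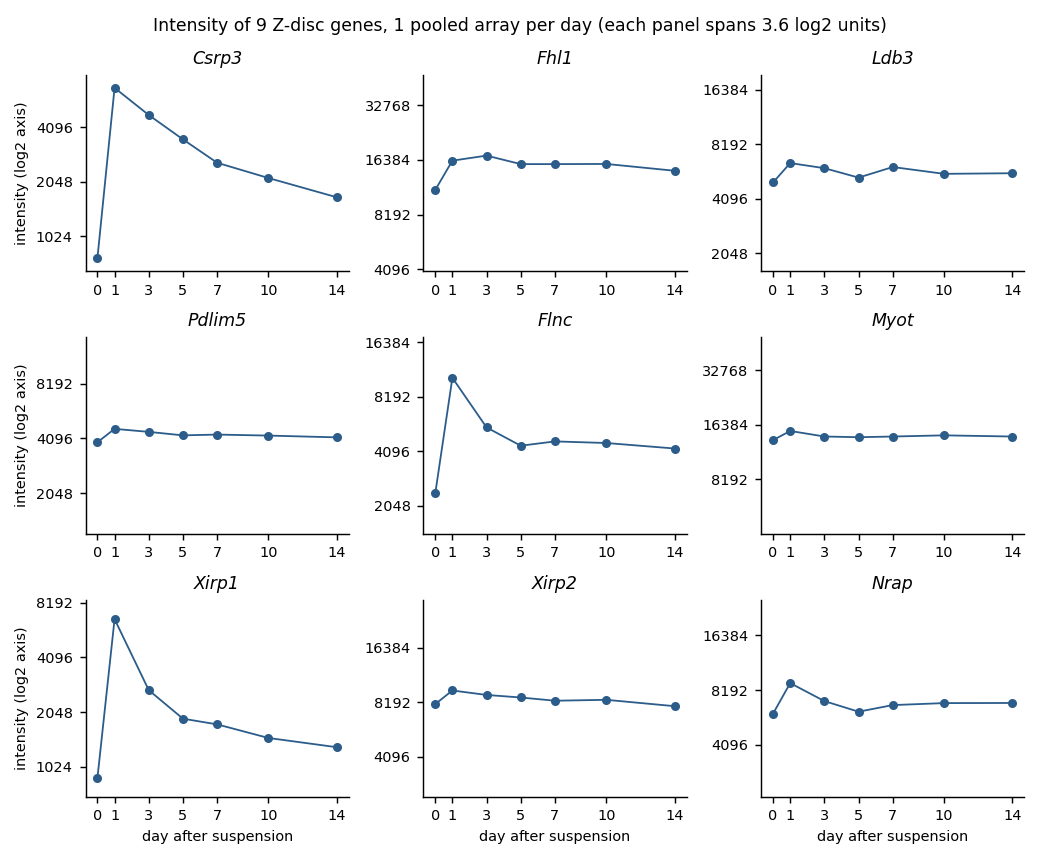
Deposited intensity (log scale) of each of the 9 members at d0, d1, d3, d5, d7, d10 and d14, each point 1 array of a pool of 6 animals. Csrp3, Xirp1 and Flnc are highest at d1 and stay above d0, while Myot, Pdlim5, Ldb3 and Xirp2 are nearly flat.

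Set against d0, Csrp3, Xirp1 and Flnc were at least 2-fold higher at d1, 3 of 9 members, where 0.653% of all genes were. The same 3 members passed at d3 (all genes 0.413%). At d5, Csrp3 and Xirp1 passed (all genes 0.182%). Csrp3 alone passed at d7 (0.19%), at d10 (0.438%) and at d14 (0.0661%). No member was 2-fold lower on any day. The other 6 members, Fhl1, Ldb3, Pdlim5, Myot, Xirp2 and Nrap, stayed under 2-fold on every day, with Fhl1 at d3 the highest of their ratios.

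The median ratio of the 9 members was 0.54 on d1, 0.26 on d3, 0.13 on d5, 0.28 on d7 and 0.19 on d10 and d14, while that of all genes was 0.10, 0.07, 0.05, 0.08, 0.10 and 0.08 on these days. In 8 of 9 members d1 was the highest array, and in 8 of 9 d0 was the lowest. Of all genes, 28.6% had their highest value at d1 and 39.4% their lowest at d0. The sign of the small ratios depends on scaling. Over the kept genes alone, the median intensity was 329.6 at d1 and 331.5 at d10, against 298.1 at d0, a wider gap than over all rows. Making these medians equal lowers every ratio by 0.15 at d1 and d10. All 9 members then remained above d0 at d1, but 6 of 9 at d10 and d14, where Pdlim5, Myot and Xirp2 were below it. Myot was also below d0 at d3, d5 and d7, Nrap at d5 and Xirp2 at d7 under that scaling. After quantile normalization, all 9 members were above d0 on each day from d1 to d10. At d14 this held for 8 of 9, with Xirp2 below d0, as in the deposited values.

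**Figure D2:**
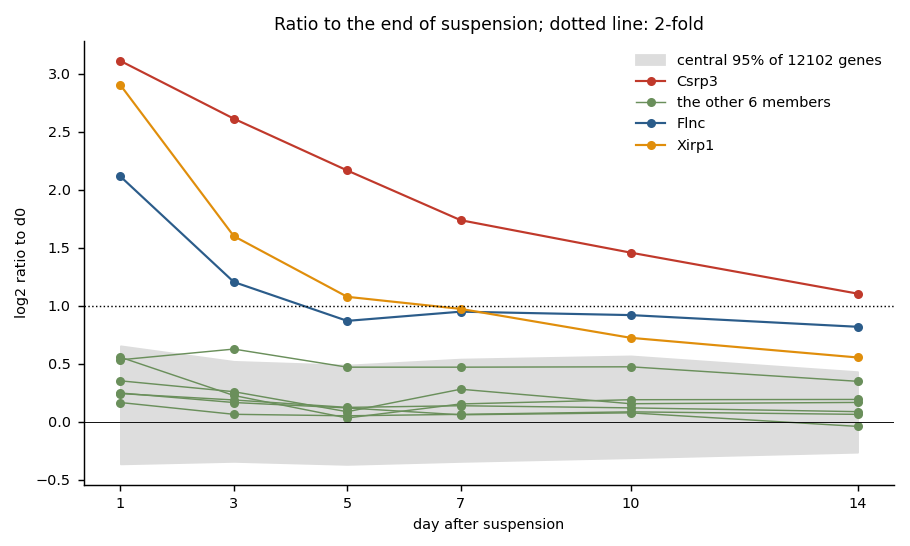
Log2 ratio of each member to the d0 array by day, beside the central 95% of all 12102 genes. Each point is a ratio of 1 array to 1 array. Csrp3, Xirp1 and Flnc start at 3.11, 2.90 and 2.12 at d1, and the other members stay below 1.

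The 3 members that passed 2-fold at d1 are set side by side here by what was left of their d1 level. Of the intensity above d0 that Xirp1 had on d1, 31.4% was left on d3, 17.2% on d5 and 7.25% on d14. For Flnc 39.2% was left on d3, 24.9% on d5, 28.0% on d7 and 23.0% on d14. For Csrp3 67.0% was left on d3, 45.7% on d5, 30.6% on d7 and 15.1% on d14. From d1 to d3 the log2 difference (d3 minus d1) was -1.30 for Xirp1, -0.91 for Flnc and -0.50 for Csrp3. For d5 minus d3 it was -0.52 for Xirp1, -0.34 for Flnc and -0.45 for Csrp3. For d7 minus d5 it was -0.10 for Xirp1, 0.08 for Flnc and -0.43 for Csrp3, and for d14 minus d10 it was -0.17, -0.10 and -0.35 in the same order. Whether the courses differ from each other was not tested.

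**Figure D3:**
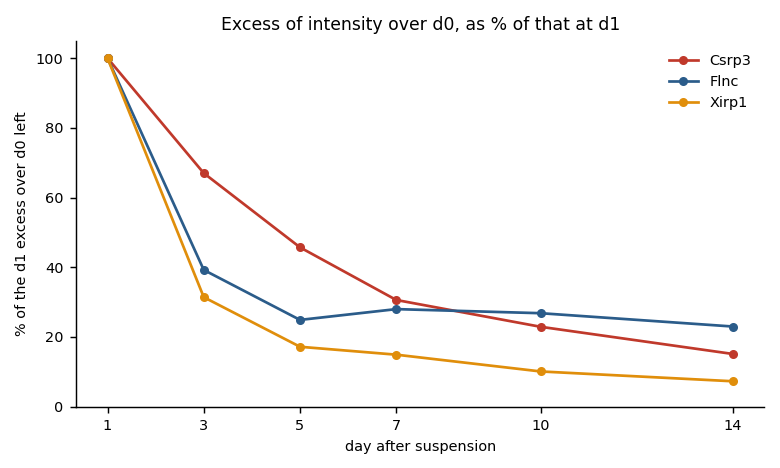
Percent of the d1 intensity above d0 that was left on each later day for Csrp3, Flnc and Xirp1, 1 array per day. Csrp3 keeps the most at d3 (67.0%), and Flnc keeps the most at d14 (23.0%).

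A comparison without the d0 array set d14 against d1. The d14 value was at least 2-fold lower than the d1 value in 3 of 9 members, where 0.388% of all genes were. These were Xirp1 (-2.35, number 4 from the lowest of 12102), Csrp3 (-2.01, number 6) and Flnc (-1.30, number 22). The other 6 members lay between -0.36 for Nrap and -0.10 for Myot. The median was -0.29 over the members and -0.0029 over all genes. The d0 comparison and this one share the d1 array.

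A straight line on log2(day + 1) was fitted with limma to the 6 arrays d1 to d14 for every gene. Its error is made of differences between pools and any departure from a straight line. Csrp3 fell by 0.71 log2 units per unit of log2(day + 1) (SE 0.035), with an adjusted p of 0.00355 in limma. Xirp1 fell by 0.79 (SE 0.090), with an adjusted p of 0.0469. These were 2 of 9 members called falling, where 0.198% of all genes were. No member was called rising, where 0.157% of all genes were.

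Flnc had a slope of -0.41 (SE 0.088) and an adjusted p of 0.126 in limma, so it did not pass although its d14 value was 2.45-fold below its d1 value. Xirp2 had a small slope with little scatter, -0.09 (SE 0.016), and an adjusted p of 0.0890. The adjusted p of the other members lay between 0.262 for Pdlim5 and 0.541 for Myot. All 9 slopes were negative, as were 52.1% of those of all genes, and 6 of 9 members were negative at an unadjusted p under 0.05, against 6.39% of all genes. Without the d1 array Nrap and Myot had slopes of 0.01 and 0.0067, so 7 of 9 were negative, and the slopes of Flnc (-0.16), Ldb3 (-0.03) and Fhl1 (-0.12) moved by more than 1.5 times; Fhl1 was at -0.04 without d14. Csrp3 lost its call without the d7 array (adjusted p = 0.0623), without d10 (0.103), without d14 (0.0818) and with day on a linear scale (0.285). Xirp1 lost its call whichever one of the 6 arrays was left out (adjusted p between 0.0987 and 0.303).

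With d0 added, the same limma fit over 7 arrays called 0 of 9 members and 0% of all genes. Members had an adjusted p between 0.689 and 0.973, and none had an unadjusted p under 0.05, whereas 1112 positive and 176 negative slopes of all genes did. Csrp3 had a slope of 0.06 and Xirp1 of -0.12 in this fit, since both were low at d0, high at d1 and lower again afterwards.

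**Figure D4:**
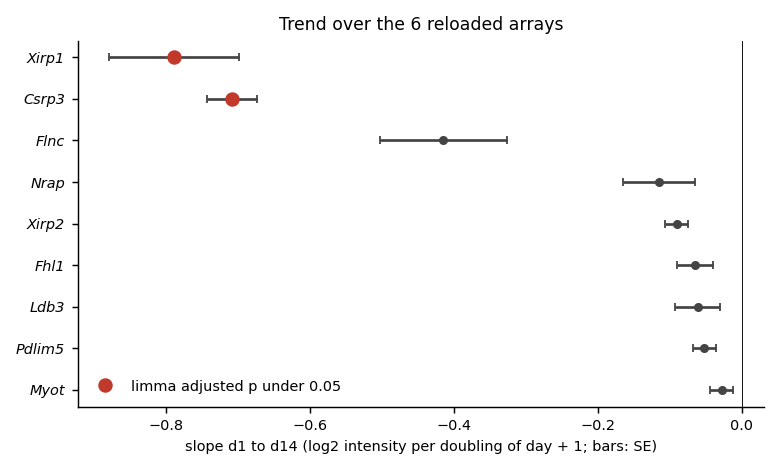
Slope of log2 intensity on log2(day + 1) over the arrays d1 to d14 for each member, with the limma standard error as a bar. Csrp3 and Xirp1 lie farthest below 0 and pass an adjusted p of 0.05. Flnc lies at -0.41 and does not pass, with an SE of 0.088 beside 0.090 for Xirp1.

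Genes known to work with these proteins were grouped by role. At d1, 0.653% of all genes were at least 2-fold higher than at d0. Among 14 kept Z-disc paralogs of the members (16 listed, 15 on the array with a single symbol), the median ratio at d1 was 0.18, and 1 was 2-fold higher. This was Pdlim1, a PDZ-LIM protein also called CLP36, with intensities of 1757 on d0, 4204 on d1, 3347 on d3 and d5, 3273 on d7, 3742 on d10 and 2745 on d14. The next largest ratios at d1 were 0.50 for Flna, the widely expressed filamin A, 0.41 for Pdlim3 and 0.35 for Palld, while Neb (nebulin) was at 0.02. None of the paralogs was called in the trend over d1 to d14.

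The 19 kept of 21 other Z-disc genes had a median ratio of 0.01 at d1, and 1 was 2-fold higher. This was Lmcd1, a LIM and cysteine-rich domain protein, with intensities of 2350 on d0, 8246 on d1 and 3062 on d14 and a ratio of 1.81 on d1. Its slope over d1 to d14 was -0.46, with an adjusted p of 0.0540 in limma. Actn2, the alpha-actinin 2 that cross-links actin, had a ratio of 0.75 at d1, Myoz2 (calsarcin-1) 0.55 and Synpo2l 0.38. Ttn (titin) was at 0.00, Actn3 at -0.12 and Tcap (telethonin) at -0.29, so none of these 3 genes was above d0 by more than the all-gene median.

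The list for the chaperone-assisted turnover of filamin also holds the small heat shock proteins Hspb7 and Hspb1, whose part in that turnover was not tested. It had 8 kept genes of 9, with a median ratio of 0.61 at d1 and 7 of 8 above d0, where 70.9% of all genes were. The small heat shock proteins Hspb7 and Hspb1 were 2-fold higher, at 1.35 and 1.33, where 0.653% of all genes were. Hspb8, the partner of Bag3, had a ratio of 0.89, and Bag3, the co-chaperone that recognises damaged filamin, 0.70. The rest of the list was lower at d1, with Hspa8 at 0.51, Sqstm1 at 0.30, Synpo2 at 0.15 and Stub1 at -0.04. Sqstm1 was below d0 at d3, d5, d7 and d10. Over d1 to d14, Hspb1 fell by 0.33 per unit of log2(day + 1), with an adjusted p of 0.00870 in limma, the single call among the 8. That call was kept in 1 of the 6 fits with an array left out (adjusted p 0.0301 to 0.303). At an unadjusted p under 0.05, 5 of 8 had a negative slope and 0 a positive one, against 773 and 833 of all 12102 genes.

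The 10 partner genes of the Xin proteins and Nrap had a median ratio of 0.46 at d1, with 9 of 10 above d0 (70.9% of all genes). Enah, the actin polymerisation factor Mena that binds Xin, was the gene past 2-fold. It had intensities of 507.1 on d0, 2089 on d1, 1089 on d3, 806.9 on d5, 710.9 on d7, 747.9 on d10 and 576.3 on d14. Its ratio was thus 2.04 at d1 and 0.18 at d14, and over d1 to d14 it fell by 0.60 per unit of log2(day + 1), with an adjusted p of 0.0469 in limma. The call was lost whichever array was left out (0.0987 to 0.314). Vcl (vinculin) had a ratio of 0.92 at d1 and Tln1 (talin 1) 0.74, both proteins of the membrane attachment of actin.

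Among 10 kept of 12 MEF2, SRF and myogenic regulators, the median ratio at d1 was 0.26, and Abra was the gene past 2-fold. Abra, known as STARS, is an actin-binding activator of SRF and was at 1.65 at d1. Over d1 to d14 it fell by 0.34 per unit of log2(day + 1), with an adjusted p of 0.0469 in limma, and this call too was lost with any array left out (0.0818 to 0.303). Myog (myogenin) had a ratio of 0.65 at d1, Myod1 0.38 and Tead1, which binds M-CAT, 0.27. The Myog intensity was low, 105.2 at d0 and 164.8 at d1. It lay above the array medians of 128.1 to 131.8 at d1 only, so Myog passed the filter through that array alone. Actn2 and Synpo2 each stand in more than one of these lists. Myog and Myod1 also stand among the markers of regenerating fibres and satellite cells, and Actn3 among the fast fibre markers.

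**Figure D5:**
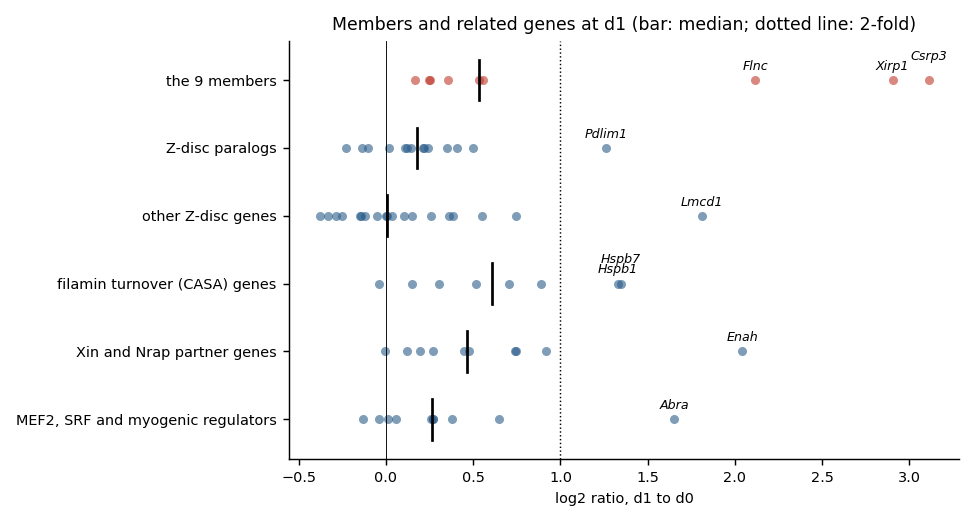
Log2 ratio of d1 to d0 for each kept gene of the members and of the 5 lists of related genes, with the median of the members and of each list. Of the 5 lists, Enah, Lmcd1, Abra, Hspb7, Hspb1 and Pdlim1 lie past 2-fold, and all their other genes lie below 1.

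The genes most like Csrp3, Flnc and Xirp1, the members with a log2 range of at least 1, were sought by Pearson r of log2 values over the 7 arrays, among 171 genes with such a range. Nearest to Csrp3 were Azin1 (r = 0.993), Hspb1 (0.990) and Ankrd2 (0.985), an ankyrin repeat protein of the sarcomere with a ratio of 2.76 at d1. Nearest to Flnc were Rcan1 (0.994), Dnaja4 (0.986) and Rnf115 (0.986). Nearest to Xirp1 were Lmcd1 (0.991), Klhl40 (0.990) and Enah (0.989). Without the d0 array r lay between 0.985 and 0.993 for these 9 pairs. Among the members, r was lowest between Fhl1 and Nrap (0.543) and highest between Csrp3 and Pdlim5 (0.975). The log2 range over the 7 arrays was 3.11 for Csrp3 and 0.24 for Pdlim5, and r takes no account of its size. Without d0, r was lowest between Fhl1 and Myot (0.245) and highest between Flnc and Xirp1 (0.976), with 0.314 for Fhl1 and Nrap. All pairs share the same 7 arrays, so these values are descriptions.

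Marker lists of other cells are set beside these values, with 70.9% of all genes above d0 at d1. The 10 kept macrophage markers of 11 had a median ratio of 0.42 at d1, with 10 of 10 above d0, and a summed intensity of 6326 at d1, against 4141 at d0, led by Cd68 at 2.04. Their median lay between 0.24 and 0.39 on the d3, d5 and d10 arrays, each with 10 of 10 markers above d0. It was -0.02 on the d7 and d14 arrays, each with 5 of 10 above d0. All 8 markers of regenerating fibres and satellite cells were kept, with a median of 0.50 at d1, 7 of 8 above d0, and a summed intensity of 2936 at d1, against 2196 at d0. Their median was 0.06 at d3 and -0.03 at d14. Slow fibre markers, 8 of 8 kept, had their largest median at d3 (1.11), against 0.43 at d1. The median at d1 was 0.76 for 7 kept neutrophil markers of 8, with 2.31 at d10, 0.12 for 7 fibroblast markers (4 of 7 above d0, summed intensity 14457 at d1, against 15647 at d0), 0.26 for 7 endothelial markers and 0.32 for 5 kept smooth muscle markers of 6. Of 4 cardiac muscle markers 2 were kept, with a median of 0.07. No marker was at 0, since the lowest intensity of any row was 5.2. The part of these cells in the members' values was not tested, and in whole muscle fewer cells of a type and less RNA per cell cannot be told apart.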

How the data were processed

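RNA of the left plantaris, pooled from 6 mice per day, was hybridised to 1 array per day for 7 days, per the labels and the design text. The deposited values are linear intensities, 1 per row and array, as the authors made them; the submitters' processing notes name Partek. How background, probe summaries and normalization were handled, and the genome build, is not given in the sources used here. Detection above background is not given, since no scanner file was used here.

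The pseudocount before taking log2 was 0. The annotation covered 23410 of 35556 rows, 21789 with 1 gene symbol and 1621 with several, which were not named. Entrez IDs matched 21698 rows to RefSeq, and 0 symbols changed. The row of highest mean log2 value stood for a gene, and genes below an array's median row on every array were left out. Later days were set against d0 as ratios without a test; 2-fold is the threshold.

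Trends came from limma 3.58.1 run in R 4.3.3 (lmFit, eBayes with an intensity trend, two-sided, Benjamini-Hochberg over 12102 genes at 0.05). The rest was computed in Python 3.11.15 with pandas 2.3.3 and numpy 2.4.6, drawn with matplotlib 3.10.9. Simulated data with known straight-line slopes were used to check these fits. Over d1 to d14, 24 of 50 genes were recovered at a total log2 change of 0.5 and 50 of 50 at 3, with 6 false calls. Courses that depart from a straight line were not simulated.

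All members were named, with up to 4 genes of each list by d1 ratio, up to 2 markers of each cell type and the 3 genes most like each member whose log2 range was at least 1. Csrp3, Flnc and Xirp1 had such a range. Neb, Ttn, Actn3, Tcap, Hspa8, Sqstm1, Synpo2 and Stub1 were named after their values were seen. The members and lists were chosen with earlier results of these data known. Alternatives covered the filter, normalization, rows per gene, pseudocount, threshold, reference array, day scale and left-out arrays.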

Additional observations from a re-analysis of the deposited data

How the results depend on the processing

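No paired analysis was possible because each day has 1 array. Against the mean of all 6 other arrays, which holds the other later days, members past 2-fold numbered 1 on d3 and 0 on d5, d7, d10 and d14, and 4 ratios that were past 2-fold changed sign: Xirp1 on d5 to -0.048, and Csrp3 to -0.0040 on d7, -0.33 on d10 and -0.74 on d14. With d14 as the reference they numbered 1 at d5 and 0 at d7 and d10. At 1.5-fold they numbered 3 on d7, 3 on d10 and 2 on d14; at 3-fold, 1 on d5 and 0 on d10 and d14. The counts of 3 members at d1 against d0 and at d14 against d1 stayed within 1.5 times under every alternative.

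Members called in the d1 to d14 trend numbered 2, but 3 with a filter at percentile 75 and with equal array medians, 1 with no filter, 0 with day on a linear scale, 1 with the rank of the day, 1 without the intensity trend, and 0 to 1 with one array left out. Over all genes 43 were called, against 3 with no filter, 162 with a filter at percentile 75, 140 after quantile normalization, 189 with equal array medians, 0 on a linear scale, 1 with ranks, 4 without the intensity trend and 0 to 3 with one array left out. Csrp3 was called in 12 of 16 settings (adjusted p 0.000510 to 0.285), Xirp1 in 6 (0.00497 to 0.376), Flnc in 1 (0.0374 to 0.579) and Xirp2 in 1. The cause of these differences was not tested. With d14 in place of d0, an alternative chosen after seeing the data, Enah and Lmcd1 were the list genes still 2-fold higher at d1, and the paralogs, filamin turnover genes and regulators had 0. Only 1 array per day limits the precision of every ratio.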

Other observations

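The same deposited intensity, to 1 decimal, stood on 2 or more arrays for 6716 of 12102 kept genes (55.5%), and for 590 of 1917 genes with a mean intensity of at least 1000 (30.8%). Among the members, Fhl1 had 15544.3 on d5 and on d7, and Myot had 14088.2 on d7 and on d14.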
